A study of Mus musculus with 22 samples.

Results

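Histone H3 trimethylated at lysine 4 (H3K4me3) was compared between mouse neural progenitor cells (NPC) and the embryonic stem cells (ESC) they were made from. All raw count columns labelled H3K4me3 were taken, which gave 4 of the 22 libraries of the series, with 2 NPC libraries and 2 ESC libraries, and all 24467 windows around transcription start sites (TSSs). The assay was CUT&RUN, where an antibody brings a nuclease to a histone mark or protein and the DNA cut loose there is sequenced. For NPC, 72 h in 10 ng/mL bFGF preceded 48 h in 500 nM SAG, which activates Smoothened and so the Hedgehog pathway. ESC were kept in 2i/LIF medium with LIF at 100 U/mL, the GSK3 inhibitor CHIR99021 at 3 µM and the MEK inhibitor PD0325901 at 1 µM. Both groups are C57BL/6 cells that carry the genotype label "untagged, Tir1" (Tir1 is the plant F-box protein of the auxin degron system), and are labelled untreated. Each group also has H3K27me3 libraries, used below for comparison, and 1 IgG library.

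H3K4me3 is laid down by the SET1/COMPASS and MLL methyltransferases and lies over the start sites of active genes. CpG islands carry it by default through CXXC-domain proteins that read unmethylated CpG, so that many silent developmental genes of ESC hold a low level of it together with H3K27me3, the mark of Polycomb repression. When ESC leave pluripotency, genes of the old programme lose the mark and genes of the chosen lineage gain it.

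Total counts over the windows were 3264267 and 8425292 in NPC, against 6321141 and 3621370 in ESC, so that 3 counts were worth 0.919 and 0.356 CPM in NPC, and 0.475 and 0.828 CPM in ESC. CPM are counts per 1e6 counts of the library after TMM scaling, and since every window is 5000 bp long the levels of different genes can be set side by side. Pearson's r of log2 CPM over windows was 0.989 between the NPC libraries and 0.991 between the ESC libraries. Windows without a call over IgG (14047) had a median of 3.98 and 2.14 CPM in NPC, against 3.80 and 3.87 CPM in ESC, so that NPC replicate 2 stood lower than the other 3 libraries there. Windows of close genes overlap and share reads, which among the genes described below holds for Aldh1a2, Boc, Ccnd2, Ccnd3, Dll4, Evx1, Fn1, Fzd3, Gad1, Gata6, Msgn1, Nkx2-2, Pou3f2, Ptbp1, Rfng, Rpl41, Rpl7, Shh, Six3, Slit1, Sox10, Tet3 and Zic2, for Zeb2 and for most Hox and miR-290 windows. Each gene has 1 window in the table, so a gene that starts elsewhere was not measured at that start.

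The cell type labels were checked at promoters of defining genes. At 6 ESC markers the summed level was 160.1 and 162 CPM in NPC, against 1036 and 1093 CPM in ESC, and 5 of the 6 fell. At 6 neural progenitor markers (Sox1, Pax6, Nes, Hes5, Fabp7 and Pou3f2) it was 722 and 760.1 CPM in NPC, against 248 and 227 CPM in ESC, and 6 of 6 rose. In the wider list of 30 neural progenitor factors described below, 22 rose and 4 fell. Summed levels at markers of other neural cells were also higher in NPC. At 5 neuron markers the summed level was 227 and 255 CPM in NPC, against 117 and 120 CPM in ESC, 4 rose and 1 fell, and the median log2 change was 2.83. At 5 astrocyte and oligodendrocyte markers it was 116 and 117 CPM in NPC, against 87.3 and 71.5 CPM in ESC, 2 rose and 1 fell, and the median log2 change was -0.07. The part of neurons and glia in the results below was not tested. Markers of neural crest (4, of which 0 rose and 4 fell), mesoderm (4, with 1 and 3), blood and endothelium (4, with 0 and 2) and trophectoderm (3, with 1 and 1) summed to between 65.7 and 80.6 CPM in each NPC library, and to between 69.8 and 166 CPM in each ESC library. Endoderm markers summed to 165 and 177 CPM in NPC, against 109 and 87.9 CPM in ESC, and of the 4 markers 1 rose and 1 fell. The gene that rose is Foxa2, which marks the floor plate of the neural tube as well as endoderm. Afp, a secreted protein of endoderm, was low in every library, at 3.88 and 0.837 CPM in NPC, against 1.76 and 2.50 CPM in ESC. Which cells gave the higher endoderm sum was not tested.

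Promoter sequence is shown for 5 genes whose windows moved far, because changes of this size fell on start sites of unlike CpG content. Sequences are from RefSeq (mm10, 250 bases before to 50 bases after the start), are written 5′ to 3′ in the direction of the gene, and have each CpG in capitals. Nanog and Zfp42, both lower in NPC, lie at chr6:122707239-122707538 (plus strand) and chr8:43306960-43307259 (minus strand) and hold 4 and 11 CpG. Fgf4 at chr7:144861136-144861435 (plus strand), lower in NPC as well, holds 28. Elavl4 at chr4:110286785-110287084 (minus strand) and Nkx6-1 at chr5:101664662-101664961 (minus strand), both higher in NPC, hold 4 and 40.
Nanog: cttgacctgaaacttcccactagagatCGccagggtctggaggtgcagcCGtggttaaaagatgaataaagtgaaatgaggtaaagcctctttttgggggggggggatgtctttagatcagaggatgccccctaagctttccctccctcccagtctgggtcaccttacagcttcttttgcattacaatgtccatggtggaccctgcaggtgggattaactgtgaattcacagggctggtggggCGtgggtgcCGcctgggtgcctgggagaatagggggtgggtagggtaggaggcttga
Zfp42: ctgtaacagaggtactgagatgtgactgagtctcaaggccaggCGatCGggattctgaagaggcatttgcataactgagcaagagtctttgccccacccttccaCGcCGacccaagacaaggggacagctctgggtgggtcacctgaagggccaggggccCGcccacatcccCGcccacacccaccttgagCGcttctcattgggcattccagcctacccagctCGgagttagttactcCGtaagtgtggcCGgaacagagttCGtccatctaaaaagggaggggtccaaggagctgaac
Fgf4: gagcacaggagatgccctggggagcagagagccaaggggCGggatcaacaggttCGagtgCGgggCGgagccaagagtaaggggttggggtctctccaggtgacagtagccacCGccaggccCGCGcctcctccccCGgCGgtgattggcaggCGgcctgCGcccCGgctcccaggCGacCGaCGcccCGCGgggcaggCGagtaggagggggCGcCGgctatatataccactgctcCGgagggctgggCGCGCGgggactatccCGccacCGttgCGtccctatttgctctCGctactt
Elavl4: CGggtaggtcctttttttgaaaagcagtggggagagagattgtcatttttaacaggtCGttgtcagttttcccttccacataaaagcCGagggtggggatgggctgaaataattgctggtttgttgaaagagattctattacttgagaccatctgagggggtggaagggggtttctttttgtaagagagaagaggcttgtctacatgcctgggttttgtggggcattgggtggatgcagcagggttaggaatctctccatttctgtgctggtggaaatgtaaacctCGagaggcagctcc
Nkx6-1: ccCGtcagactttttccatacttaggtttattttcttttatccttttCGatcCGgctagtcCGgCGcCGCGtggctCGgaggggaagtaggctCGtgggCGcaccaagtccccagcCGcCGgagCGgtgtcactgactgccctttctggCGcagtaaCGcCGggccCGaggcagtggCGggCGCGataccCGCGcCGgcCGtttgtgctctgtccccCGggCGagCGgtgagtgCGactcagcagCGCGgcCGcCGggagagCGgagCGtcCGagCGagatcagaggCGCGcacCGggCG

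H3K4me3 differed between NPC and ESC over much of the genome's start sites. Differences of 2-fold or more were more often losses than gains, above all at windows of low level. Of 24467 windows 19776 had enough counts to be tested, and 11064 of them (55.9%) passed edgeR's quasi-likelihood test at a Benjamini-Hochberg adjusted p of 0.05, 5286 (26.7%) higher and 5778 (29.2%) lower in NPC. Most of these differences were small, since 69.4% of the windows that passed differed by less than 2-fold and the median log2 change was 0.51 among those that rose and -0.85 among those that fell. At 2-fold or more 860 windows rose and 2524 fell. At 4-fold or more the counts were 159 and 784, and at 16-fold or more 5 and 52. The excess of 2-fold losses lay mostly at low levels. Up to 6.49 CPM 59 windows rose and 553 fell by 2-fold or more, and from there to 28.3 CPM 332 and 1351. From 28.3 to 55.6 CPM the counts were 243 and 322, from there to 86.4 CPM 133 and 153, and above that 93 and 145. NPC replicate 2 stood lower at windows without a call over IgG, and its part in this excess was not tested. The median over all tested windows was -0.02. Of the windows that passed, 99.3% had the 2 NPC libraries both above or both below the 2 ESC libraries. Replicates are given as biological in the labels, and the p-values rest on the spread of these 2 libraries a group.

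The scaling changed how many windows passed. With TMM factors from the 14047 windows without a call over IgG, the median over all windows became 0.12, 3861 windows passed and 35.1% of those rose, against 47.8% with the factors used here. Such windows are not shown to lack the mark, as 3013 of the 5778 falls and 1328 of the 5286 rises lie among them. Among the 290 genes named by rule that passed, 117 did not pass under that scaling, but of the 165 that differed by 2-fold or more only Nfib, Rpl10a, Rps20 and Shmt1 were lost. Fewer calls there did not mean smaller rises, since Boc, Fzd7 and Fgf5 did not pass with log2 changes of 1.02, 1.03 and 0.74, against 0.89 ± 0.09, 0.89 ± 0.08 and 0.60 ± 0.11 with the factors used here. Falls became smaller, as at Etv4 and Etv5. These did not pass with -0.79 and -0.19, against -0.91 and -0.34 with the factors used here. DESeq2 called 7611 windows and did not call 41 of the 290 named genes, Pou3f1, Dnmt3b and Etv5 among them. Leaving out 1 library at a time gave 7811 to 12296 windows. With no spike-in in use, a shift shared by every window would not be seen.

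**Figure D1:**
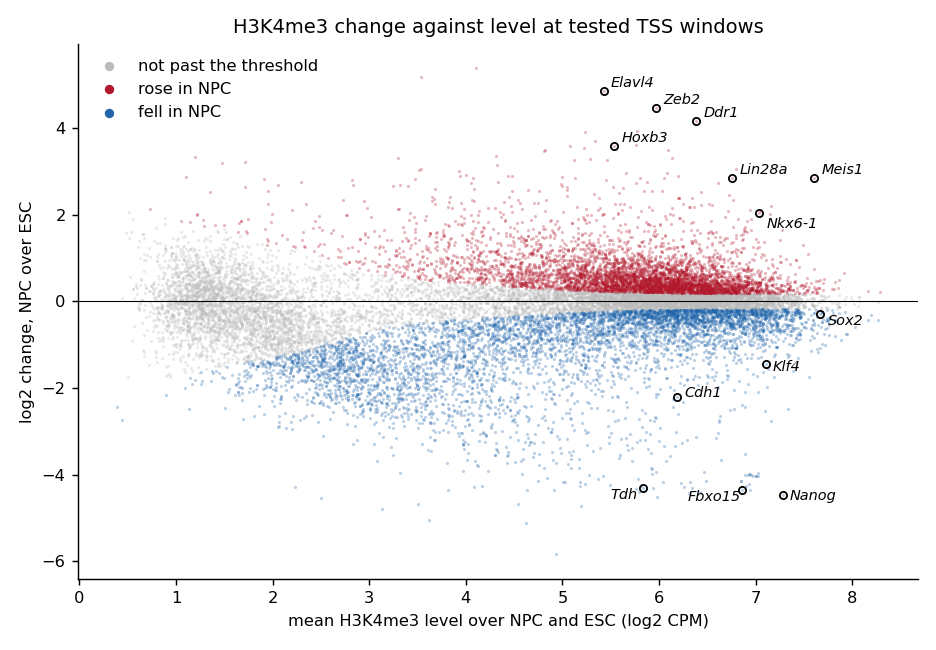
Each point is 1 of 19776 tested windows, with the mean H3K4me3 level over NPC and ESC (log2 CPM) on the x axis and the log2 change, NPC over ESC, on the y axis. Windows that rose are red (5286), those that fell blue (5778) and the others grey, and the changes beyond 4 on the log2 axis lie mostly below 0 (5 against 52).

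Large losses lay in the pluripotency network. Of 20 naive pluripotency factors 0 rose and 19 fell, 16 of them by 2-fold or more, with a median log2 change of -2.57. Nanog, a homeobox factor of the core network, had 9.56 and 15.3 CPM in NPC, against 296 and 301 CPM in ESC, a log2 change of -4.46 ± 0.11 (SE of the fit, as for all log2 changes below). Pou5f1, the POU factor OCT4, had 12.5 and 11.5 CPM in NPC, against 219 and 235 CPM in ESC, a change of -4.26 ± 0.11 (adjusted p = 1.16e-305). In both genes each NPC library lay far below each ESC library.

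The signalling genes of the network fell with its factors. Tdgf1, the Nodal co-receptor Cripto, had 11.1 and 12.9 CPM in NPC, against 216 and 247 CPM in ESC (-4.21 ± 0.11), and Fgf4, the FGF ligand that ESC secrete, had 15.5 and 14.0 CPM in NPC, against 184 and 185 CPM in ESC (-3.67 ± 0.11). Zfp42, the zinc finger gene known as Rex1, had 12.0 and 16.9 CPM in NPC, against 138 and 146 CPM in ESC (-3.20 ± 0.11), and Tfcp2l1, a factor of the 2i/LIF state, had 25.4 and 27.9 CPM in NPC, against 165 and 178 CPM in ESC (-2.65 ± 0.10). Their libraries did not overlap between the groups. Klf4 kept more of the mark, with 78.6 and 70.2 CPM in NPC, against 193 and 209 CPM in ESC, a log2 change of -1.45 ± 0.08. Sox2, which serves both pluripotency and neural progenitors, kept more, with 178 and 186 CPM in NPC, against 219 and 232 CPM in ESC. Its change of -0.30 ± 0.08 (adjusted p = 4.73e-04) did not pass with factors from windows without a call. Esrrb, an orphan nuclear receptor, was the member that did not pass, at 22.1 and 20.5 CPM in NPC, against 26.4 and 23.1 CPM in ESC, and its window was low in all 4 libraries.

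Genes that mark ESC without belonging to the network went the same way in most cases. Of 28 in that list 2 rose and 24 fell, with a median of -1.35. Fbxo15, an F-box gene under OCT4 and SOX2 control, had 14.0 and 9.33 CPM in NPC, against 223 and 218 CPM in ESC (-4.36 ± 0.11), and Tdh, the threonine dehydrogenase on which mouse ESC depend, had 6.57 and 5.02 CPM in NPC, against 109 and 107 CPM in ESC (-4.30 ± 0.13). Gdf3, a TGF-beta family ligand, and Spp1, the secreted protein osteopontin, changed by -3.94 ± 0.11 and -4.20 ± 0.12. The members that rose were the paralogs Lin28a and Lin28b, RNA-binding proteins that block let-7 maturation. Lin28a had 174 and 205 CPM in NPC, against 25.4 and 28.9 CPM in ESC (2.85 ± 0.10), and Lin28b had 100.1 and 123 CPM in NPC, against 20.6 and 18.1 CPM in ESC (2.54 ± 0.11). Mycn, which both cell types use, had 174 and 179.7 CPM in NPC, against 156 and 164 CPM in ESC and did not pass.

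**Figure D2:**
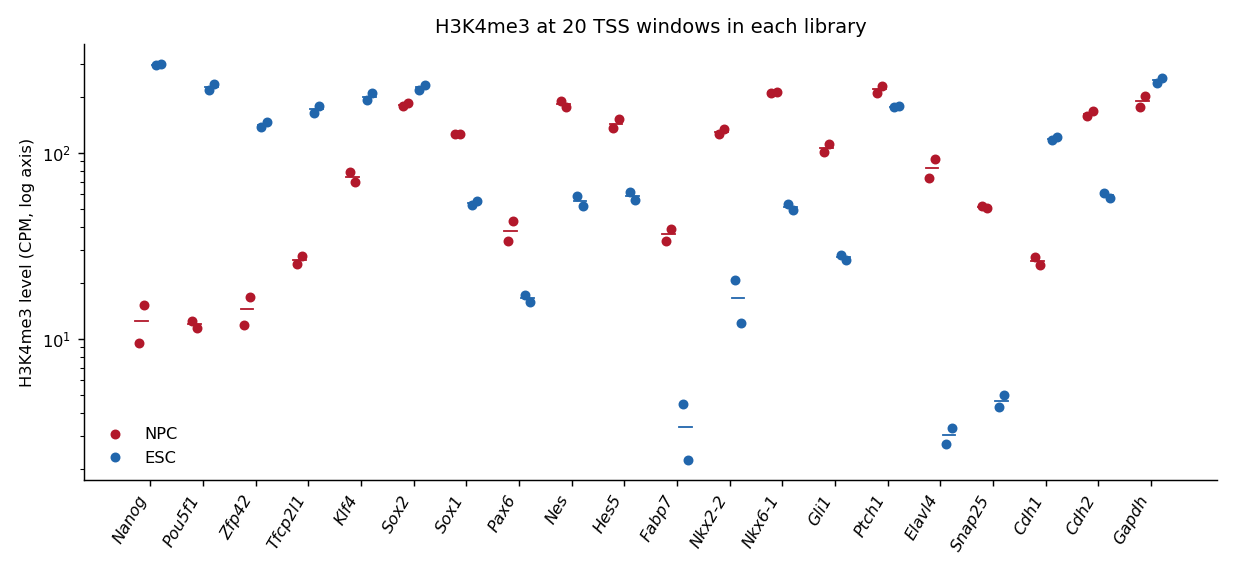
H3K4me3 level (CPM, log axis) at 20 windows, with NPC libraries in red to the left of ESC libraries in blue, a point per library and a line at the mean. Nanog, Pou5f1, Zfp42, Tfcp2l1, Klf4 and Cdh1 were lower in NPC, Sox1 to Gli1, Elavl4, Snap25 and Cdh2 were higher, and Sox2, Ptch1 and Gapdh differed less than the others.

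Of 19 tested genes of the formative and primed epiblast, the states between naive ESC and lineage choice, 5 rose and 13 fell, with a median of -0.63. Nodal had 24.8 and 24.8 CPM in NPC, against 169 and 174 CPM in ESC (-2.79 ± 0.10), and the zinc finger genes Zic2 and Zic5 and the chromatin factor Utf1 changed by -1.29 ± 0.08, -1.73 ± 0.09 and -1.82 ± 0.11. The rises were at Dusp6 (1.36 ± 0.09), Fgf15 (0.92 ± 0.11), Fgf5 (0.60 ± 0.11), Pou3f1 (0.37 ± 0.10) and Dnmt3b (0.22 ± 0.09). Those at Pou3f1 and Dnmt3b did not pass without ESC replicate 2 or without NPC replicate 2. Otx2 did not pass, with 12.3 and 14.0 CPM in NPC, against 16.5 and 8.90 CPM in ESC, at a window that was low in every library.

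Neural progenitor factors gained the mark. Of 30 in the list 22 rose and 4 fell, 18 of the rises being 2-fold or more, with a median log2 change of 1.26. Sox1, the earliest pan-neural SOX factor, was higher in both NPC libraries (127 CPM in NPC and 53.9 CPM in ESC), as were Pax6, at 33.5 and 42.9 CPM in NPC, against 17.3 and 15.9 CPM in ESC (1.25 ± 0.14), and the intermediate filament gene Nes, at 189 and 176 CPM in NPC, against 58.3 and 51.7 CPM in ESC (1.70 ± 0.09). The TALE homeobox genes, whose proteins bind DNA beside Hox proteins, stood out within the list. Meis1 had 323 and 359.6 CPM in NPC, against 48.1 and 47.6 CPM in ESC, the highest level among the named genes that rose, while Meis2 changed by 2.20 ± 0.09. The POU factor gene Pou3f2 had 202 and 225 CPM in NPC, against 54.2 and 46.2 CPM in ESC (2.08 ± 0.09), and Fabp7, the radial glia fatty acid binding protein, had 33.8 and 39.2 CPM in NPC, against 4.47 and 2.22 CPM in ESC (3.35 ± 0.21). The members that fell were Pax8 (-1.06 ± 0.15), Lhx2 (-0.45 ± 0.16), Pax2 (-0.27 ± 0.09) and Sox2. Hes1, a Notch effector already marked in ESC, had 168 and 179.7 CPM in NPC, against 159 and 155 CPM in ESC and did not pass.

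The Hedgehog pathway, which SAG switches on at Smoothened, was read by role. Of 17 members 11 rose and 3 fell, with a median of 0.46. Gli1, the transcription factor that is itself a target of the pathway, had 101 and 111 CPM in NPC, against 28.3 and 26.7 CPM in ESC (1.96 ± 0.10). Hhip, a target that sequesters the ligand, had 96.5 and 101 CPM in NPC, against 41.7 and 34.2 CPM in ESC (1.35 ± 0.09), and Ptch1, the receptor and a further target, was high in both cell types with 210.3 and 229 CPM in NPC, against 176 and 179 CPM in ESC (0.32 ± 0.08). The transducer Smo and the co-receptor Boc changed by 1.28 ± 0.09 and 0.89 ± 0.09. The ligand genes did not gain the mark, since Dhh and Ihh fell by 0.97 and 0.70 on the log2 scale and Shh had 67.2 and 65.8 CPM in NPC, against 62.3 and 53.7 CPM in ESC and did not pass. Gli2 had 120.1 and 129 CPM in NPC, against 191 and 195 CPM in ESC and fell (-0.62 ± 0.08). With factors from windows without a call, 4 members rose and 0 fell.

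Ventral neural tube factors, which Hedgehog signalling patterns in the embryo, went both ways. Of 18 tested 11 rose and 5 fell. Nkx2-2, of the p3 domain next to the floor plate, had 126 and 134 CPM in NPC, against 20.8 and 12.2 CPM in ESC (2.90 ± 0.11, adjusted p = 1.19e-157), and its neighbour in role Nkx2-9 had 105 and 111 CPM in NPC, against 32.6 and 29.8 CPM in ESC (1.79 ± 0.10). Nkx6-1, of the ventral progenitor domains, had 209 and 214 CPM in NPC, against 53.4 and 49.5 CPM in ESC (2.03 ± 0.09), and the floor plate factor Foxa2 had 114 and 125 CPM in NPC, against 36.0 and 29.2 CPM in ESC (1.86 ± 0.10). In each of these the NPC libraries were more than 3 times the ESC libraries. The motor neuron progenitor factors Olig1 and Olig2 went the other way, with 44.8 and 46.1 CPM in NPC, against 116 and 104 CPM in ESC at Olig1 (-1.28 ± 0.09) and 61.3 and 67.3 CPM in NPC, against 93.2 and 91.5 CPM in ESC at Olig2 (-0.50 ± 0.09). Evx1 and Evx2 of the V0 interneurons and Prdm12 of the p1 domain fell as well (-1.45 ± 0.16, -1.25 ± 0.20 and -0.86 ± 0.17), while Dbx1 and Sim1 did not pass at 15.9 CPM in NPC and 12.8 CPM in ESC, and 24.7 CPM in NPC and 21.9 CPM in ESC.

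Notch signalling keeps progenitors dividing and spaces out neurogenesis. Of 20 members 14 rose and 3 fell, with a median of 0.56, and with factors from windows without a call 6 and 0. Maml2, a co-activator of the Notch intracellular domain, had 84.9 and 94.3 CPM in NPC, against 12.5 and 10.3 CPM in ESC (2.96 ± 0.12), and Lfng, a glycosyltransferase that tunes the receptor, had 145 and 149 CPM in NPC, against 26.7 and 23.9 CPM in ESC (2.52 ± 0.10). The ligand Dll1 and the feedback gene Nrarp changed by 1.05 ± 0.09 and 1.12 ± 0.09. The related Rfng, Jag2 and Heyl fell (-0.38 ± 0.08, -0.32 ± 0.12 and -0.53 ± 0.19), and Dll4 did not pass (-0.21 ± 0.10).

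Genes of neuronal differentiation were mostly higher in NPC, with wide differences in size. Of 30 proneural and early neuronal factors 17 rose and 5 fell, against 9 and 0 with factors from windows without a call. Neurod4, a bHLH factor of newborn neurons, had 29.9 and 37.2 CPM in NPC, against 0.479 and 1.39 CPM in ESC (5.37 ± 0.29), with ESC at or near the level of 3 counts. Nhlh1, which follows the proneural factors, had 24.8 and 28.9 CPM in NPC, against 3.04 and 4.73 CPM in ESC (2.90 ± 0.23). The proneural genes Atoh1, Neurog2 and Neurod2 were lower in NPC (-0.71 ± 0.10, -0.35 ± 0.10 and -0.76 ± 0.14), as were the motor neuron and interneuron genes Mnx1 and Lhx5 (-0.29 ± 0.09 and -0.51 ± 0.17).

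Among genes for neuronal RNA-binding and cytoskeletal proteins 23 rose and 4 fell of 34 tested, with a median of 0.68. Elavl4, the neuronal RNA-binding protein HuD, had 73.5 and 92.6 CPM in NPC, against 2.72 and 3.34 CPM in ESC (4.86 ± 0.17), and the splicing regulator Srrm4, which sets neuronal microexons, had 71.4 and 78.7 CPM in NPC, against 24.8 and 19.2 CPM in ESC (1.75 ± 0.11). Its opponent Ptbp1, the splicing repressor of non-neural cells, had 170.0 and 190.2 CPM in NPC, against 239 and 262 CPM in ESC (-0.46 ± 0.08). The paralog Elavl2 fell (-1.12 ± 0.13), as did Stmn2 and Mapt, microtubule regulators of mature neurons (-0.67 ± 0.09 and -0.21 ± 0.08). Dcx, of migrating neurons, was low at 5.68 and 7.42 CPM in NPC, against 0.799 and 1.11 CPM in ESC (2.83 ± 0.65).

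For synapse and channel genes 18 rose and 6 fell of 34. Snap25, of the vesicle fusion machinery, had 51.7 and 50.8 CPM in NPC, against 4.31 and 5.01 CPM in ESC (3.48 ± 0.18), and the glutamate receptor subunits Gria2 and Gria4 changed by 1.66 ± 0.14 and 1.10 ± 0.11. The GABA-synthesis genes Gad1 and Gad2 fell (-0.99 ± 0.11 and -0.46 ± 0.11). Axon guidance genes were nearly uniform in direction, as 28 rose and 1 fell of 34, with a median of 0.75. With factors from windows without a call the counts were 13 and 0, with a median of 0.90. The receptor Robo2 had 79.2 and 81.9 CPM in NPC, against 19.2 and 13.3 CPM in ESC (2.25 ± 0.11), its ligand Slit1 had 79.8 and 84.8 CPM in NPC, against 18.7 and 15.9 CPM in ESC (2.23 ± 0.11), and Efnb3 and Sema6a changed by 1.99 ± 0.12 and 1.40 ± 0.08. Robo3, the member that fell, had 18.8 and 14.1 CPM in NPC, against 24.6 and 23.1 CPM in ESC (-0.62 ± 0.17).

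Glial genes went both ways, as 5 rose and 7 fell of 18, with a median of -0.70. By 2-fold or more 1 rose and 7 fell. With a minimum count of 30 the median of the 14 genes tested was -0.10. Slc1a3, the glutamate transporter that radial glia share with astrocytes, had 49.9 and 59.0 CPM in NPC, against 17.4 and 17.0 CPM in ESC (1.70 ± 0.12), whereas Nfib and the oligodendrocyte genes Sox10 and Mbp fell (-1.20 ± 0.09, -2.27 ± 0.23 and -1.35 ± 0.20).

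**Figure D3:**
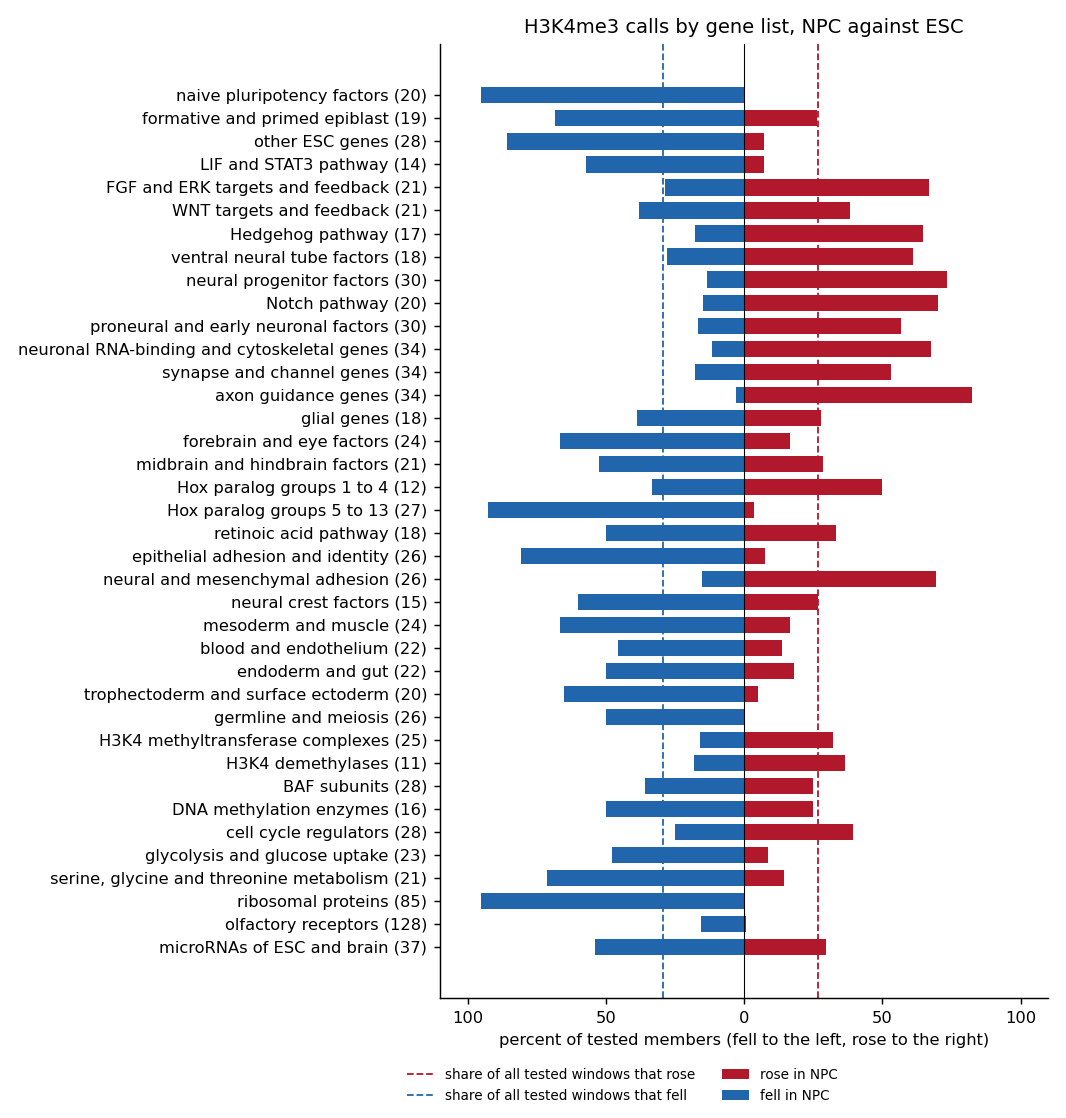
For each gene list (number of tested members in brackets), the percent of members that rose in NPC is drawn to the right in red and the percent that fell to the left in blue. Dashed lines mark the shares of all tested windows, 26.7% and 29.2%. Naive pluripotency, posterior Hox and ribosomal protein genes reach furthest to the left and axon guidance genes furthest to the right.

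The Hox genes encode position along the embryo, from the hindbrain (group 1) to the tail (group 13). Among the 12 genes of groups 1 to 4, 6 rose and 4 fell, and among the 27 genes of groups 5 to 13, 1 rose and 25 fell, with medians of 0.32 and -1.44. Hoxb2 had 171 and 191 CPM in NPC, against 36.1 and 36.4 CPM in ESC (2.33 ± 0.09), Hoxb3 had 81.0 and 89.9 CPM in NPC, against 7.19 and 7.23 CPM in ESC (3.59 ± 0.14), and Hoxa2 had 132 and 138 CPM in NPC, against 32.8 and 25.3 CPM in ESC (2.18 ± 0.10). Hoxb4 changed by 1.28 ± 0.09. The 4 tested HoxB genes of groups 1 to 4 all rose, whereas in the HoxD cluster 0 of 3 rose and 2 fell, Hoxd1 (-1.21 ± 0.15) and Hoxd4 (-1.23 ± 0.54, adjusted p = 4.16e-02). Hoxd4 was low, at 4.48 and 1.79 CPM in NPC, against 7.67 and 5.28 CPM in ESC, and did not pass with DESeq2, library totals or either replicate block, nor when either ESC library or NPC replicate 2 was left out. In the HoxA cluster Hoxa3 fell beside Hoxa2 (-1.47 ± 0.15).

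Among the posterior Hox genes Hoxb9 had 15.2 and 17.9 CPM in NPC, against 67.4 and 61.2 CPM in ESC (-1.92 ± 0.12), Hoxc13 had 13.7 and 16.4 CPM in NPC, against 65.8 and 55.9 CPM in ESC (-1.99 ± 0.12), and Hoxa10 and Hoxc11 changed by -2.20 ± 0.17 and -2.21 ± 0.17. Hoxb7 was the 1 that rose, at 57.7 and 56.2 CPM in NPC, against 40.8 and 31.4 CPM in ESC (0.61 ± 0.10). It did not pass with factors from windows without a call. Windows of neighbouring Hox genes overlap (8 of 12 and 16 of 27), so that adjacent values share reads. Among non-overlapping windows 0 posterior genes rose and 11 fell, and 3 anterior genes rose and 0 fell.

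**Figure D4:**
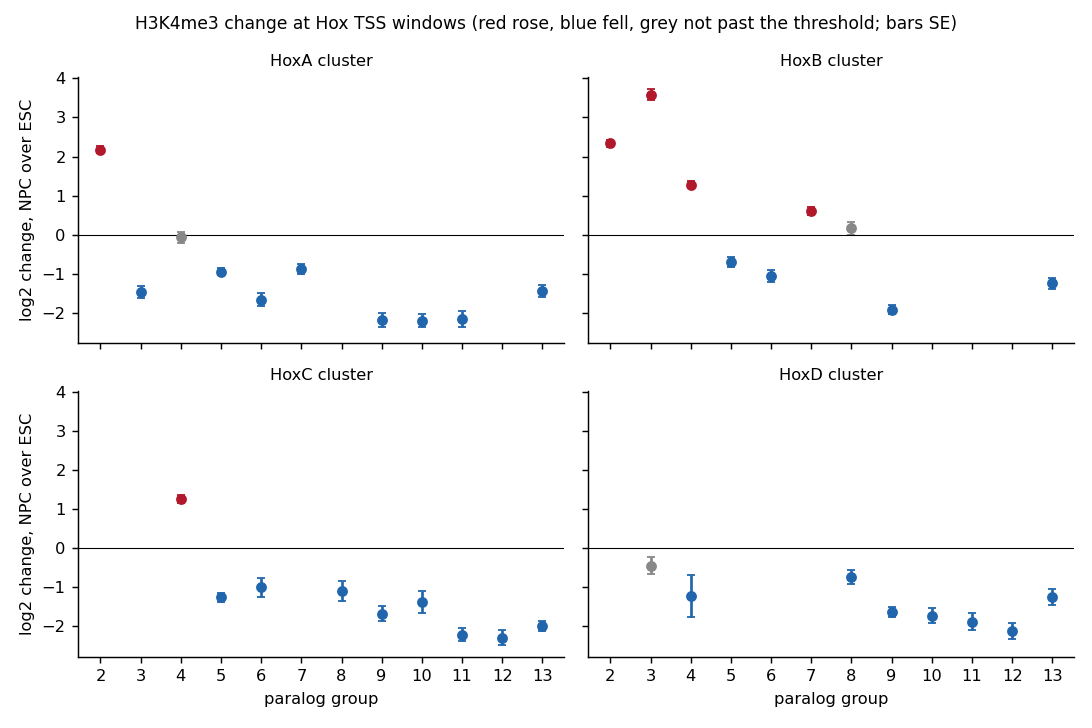
Log2 change of H3K4me3, NPC over ESC, at Hox windows of paralog groups 2 to 13 against the group, in 1 panel per cluster, with bars for the SE. Points above 0 are Hoxa2, Hoxb2 to Hoxb4, Hoxb7, Hoxb8 and Hoxc4, and the genes of groups 9 to 13 lie between -1.24 and -2.28.

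Regional factors from further forward fell more often than they rose. Of 24 forebrain and eye factors 4 rose and 16 fell, among them Hesx1, with 4.48 and 2.27 CPM in NPC, against 37.7 and 41.4 CPM in ESC (-3.74 ± 0.21), and the eye field gene Rax (-1.63 ± 0.16), whereas Vax1 and Six3 rose (0.82 ± 0.09 and 0.52 ± 0.14). With factors from windows without a call 0 rose and 5 fell. Of 21 midbrain and hindbrain factors 6 rose and 11 fell. Irx1 and Irx3 rose (1.03 ± 0.11 and 0.70 ± 0.08), Otp fell (-1.61 ± 0.15), and Fgf8 of the midbrain-hindbrain organizer did not pass (-0.15 ± 0.15). In the retinoic acid pathway, which sets hindbrain identity, 6 rose and 9 fell of 18. The binding protein Crabp2 had 169.8 CPM in NPC and 25.3 CPM in ESC (2.72 ± 0.10), while the synthesis gene Aldh1a2 and the degrading enzymes Cyp26a1 and Cyp26c1 fell (-1.22 ± 0.13, -0.94 ± 0.11 and -1.68 ± 0.17).

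The media differ in FGF, WNT and LIF signalling, since the ESC medium blocks MEK and GSK3 and holds LIF while NPC received bFGF. Of 21 FGF and ERK targets 14 rose and 6 fell (4 and 0 with factors from windows without a call). The ERK phosphatase gene Dusp6 had 182 and 209 CPM in NPC, against 82.3 and 69.8 CPM in ESC (1.36 ± 0.09, adjusted p = 1.43e-55), and Spred1, Fos and the receptor Fgfr3 changed by 1.14 ± 0.09, 1.02 ± 0.09 and 1.21 ± 0.09. The ETS factors Etv4 and Etv5 fell (-0.91 ± 0.09 and -0.34 ± 0.09), and Egr1 had 119.8 and 119 CPM in NPC, against 119 and 123 CPM in ESC and did not pass. Among WNT genes 8 rose and 8 fell of 21. The targets Notum (33.5 and 33.3 CPM in NPC, against 187 and 184 CPM in ESC, -2.48 ± 0.09), Cdx1 (-3.54 ± 0.16) and Sp5 (-1.40 ± 0.11) fell, the receptors Fzd3 and Fzd7 and the antagonists Sfrp1 and Sfrp2 rose (1.91 ± 0.10, 0.89 ± 0.08, 1.72 ± 0.09 and 0.92 ± 0.09), and Axin2 did not pass at 159.6 and 153 CPM in NPC, against 143 and 149 CPM in ESC. In the LIF and STAT3 list 1 rose and 8 fell of 14. Without ESC replicate 2 the count that fell was 5. Bcl3, an IkappaB family member, fell (-3.57 ± 0.11), the kinase Jak2 rose (1.10 ± 0.09), and the feedback gene Socs3 did not pass, with 162 and 156 CPM in NPC, against 161 and 164 CPM in ESC.

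Epithelial adhesion genes lost the mark and neural adhesion genes gained it. Of 26 epithelial genes 2 rose and 21 fell, with a median of -1.04. E-cadherin (Cdh1) had 27.5 and 25.0 CPM in NPC, against 117 and 121 CPM in ESC (-2.21 ± 0.10), and the tight junction gene Cldn4 and the desmosomal cadherin Dsg2 changed by -2.71 ± 0.11 and -2.43 ± 0.10. The scaffold gene Tjp1, which neuroepithelium also uses, rose (1.19 ± 0.10). Of 26 neural and mesenchymal adhesion genes 18 rose and 4 fell, with a median of 0.63. N-cadherin (Cdh2) had 158 and 167 CPM in NPC, against 60.9 and 57.3 CPM in ESC (1.46 ± 0.09), and Zeb2, a repressor of E-cadherin, had 106 and 133 CPM in NPC, against 5.75 and 5.28 CPM in ESC (4.46 ± 0.14). Fibronectin (Fn1) fell (-0.93 ± 0.08).

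Genes of other lineages lost the mark more often than they gained it. For mesoderm and muscle 4 rose and 16 fell of 24, for blood and endothelium 3 rose and 10 fell of 22, for endoderm and gut 4 rose and 11 fell of 22, for trophectoderm and surface ectoderm 1 rose and 13 fell of 20, and for neural crest 4 rose and 9 fell of 15. Their medians lay between -0.47 and -0.76, against -0.02 over all windows. Windows of low level leaned to losses in general. Of all tested windows from 6.49 to 28.3 CPM, 21.5% rose and 49.5% fell, with a median of -0.44. The part of level in the losses of these lists was not tested. Msgn1, of presomitic mesoderm, had 2.72 CPM in NPC and 28.8 CPM in ESC (-3.41 ± 0.24), and Tek, an endothelial receptor, had 3.23 CPM in NPC and 28.2 CPM in ESC (-3.19 ± 0.24). Elf3, an epithelial ETS factor, had 20.6 and 18.9 CPM in NPC, against 177 and 168 CPM in ESC (-3.15 ± 0.10) and Foxd3, of the neural crest and of ESC, had 13.7 and 13.2 CPM in NPC, against 53.9 and 50.9 CPM in ESC (-1.98 ± 0.13). Gata6 and Kdr did not pass, at 40.0 CPM in NPC and 45.0 CPM in ESC, and 48.6 CPM in NPC and 47.7 CPM in ESC. In the germline and meiosis list 0 rose and 13 fell of 26, all of the falls by 2-fold or more, and 7 or 8 fell without 1 or the other ESC library. Sohlh2 had 15.2 and 14.8 CPM in NPC, against 46.8 and 48.7 CPM in ESC (-1.67 ± 0.13) and Stra8 15.8 and 19.6 CPM in NPC, against 72.1 and 73.7 CPM in ESC (-1.98 ± 0.11). Of 19 cleavage-stage genes only 3 had enough counts, and they are not described.

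Counts of further lists also moved by more than 1.5 times with factors from windows without a call. Under that scaling the numbers that rose and fell were, in the signalling lists, formative 2 and 7, WNT 3 and 4 and LIF 1 and 5. In the neural lists they were ventral neural tube 8 and 3, synapse 11 and 0, glial 1 and 6, midbrain and hindbrain 2 and 4 and retinoic acid 3 and 4. In the adhesion and other lists they were epithelial 1 and 13, neural adhesion 11 and 0, neural crest 2 and 3, mesoderm 3 and 9, blood 1 and 7, endoderm 2 and 8, trophectoderm 0 and 7 and DNA methylation 0 and 3. Leaving out 1 library moved some smaller counts by more than 1.5 times. Without ESC replicate 2, 0 blood genes, 2 endoderm genes, 2 forebrain genes and 3 glial genes rose, and without NPC replicate 2, 1 blood gene rose and 2 neural progenitor genes fell. Without ESC replicate 1 or NPC replicate 2, 1 Notch gene and 3 proneural genes fell, and without ESC replicate 1, 2 neural adhesion genes fell. Without NPC replicate 2, 0 axon guidance genes fell. Losses of the epithelial and mesodermal genes and gains of the synapse and neural adhesion genes were still the more frequent direction, with fewer calls.

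Genes of the chromatin machinery followed no common direction. Of 25 members of the H3K4 methyltransferase complexes 8 rose and 4 fell, none by 2-fold. The catalytic subunits Kmt2a, Kmt2d and Setd1b rose (0.55 ± 0.08, 0.65 ± 0.08 and 0.70 ± 0.08), while the shared core subunits Dpy30, Wdr5 and Rbbp5 fell (-0.62 ± 0.08, -0.52 ± 0.08 and -0.51 ± 0.08). Of 11 H3K4 demethylase genes 4 rose and 2 fell, and of 28 BAF remodeller subunits 7 rose and 10 fell. With factors from windows without a call the counts for these 3 lists were 0 and 0, 1 and 0, and 0 and 1. Without NPC replicate 1, NPC replicate 2, ESC replicate 1 or ESC replicate 2, the methyltransferase genes that rose numbered 11, 5, 4 and 4, the demethylases 6, 2, 1 and 2, and the BAF subunits 11, 4, 3 and 3. Among the BAF subunits Smarcd2 fell by more than 2-fold (-1.14 ± 0.18). Among 16 DNA methylation genes 4 rose and 8 fell, 3 of the falls by 2-fold or more, with 5 falls without ESC replicate 1 and 2 rises without ESC replicate 2 or NPC replicate 2. The methyl-CpG reader Zbtb38 and the dioxygenase Tet1 changed by -1.81 ± 0.25 and -1.59 ± 0.34. The demethylating dioxygenase Tet2 had 128 and 123 CPM in NPC, against 196 and 206 CPM in ESC (-0.68 ± 0.08) and its paralog Tet3 65.1 and 70.1 CPM in NPC, against 46.8 and 41.7 CPM in ESC (0.61 ± 0.09).

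Ribosomal protein and metabolism genes leaned to losses, and cell cycle genes did not. Of 85 ribosomal protein genes 0 rose and 81 fell, 8 of them by 2-fold or more, with a median of -0.56. Rps20 had 53.2 and 65.9 CPM in NPC, against 126 and 138 CPM in ESC (-1.09 ± 0.09), and Rpl41 and Rpl7 did not pass (-0.04 ± 0.08 and -0.16 ± 0.08). With factors from windows without a call 5 passed as lower, while the median was -0.42. That is -0.54 relative to all windows, against -0.53 relative to all windows with the factors used here. Of 21 genes of serine, glycine and threonine metabolism 3 rose and 15 fell (1 and 2 under that scaling), with Amt of the glycine cleavage system at 35.0 and 36.4 CPM in NPC, against 101 and 108 CPM in ESC (-1.53 ± 0.09). Of 23 glycolysis genes 2 rose and 11 fell (0 and 3). The glucose transporter Slc2a3 had 83.1 and 82.2 CPM in NPC, against 249 and 254 CPM in ESC (-1.60 ± 0.08). Of 28 cell cycle regulators 11 rose and 7 fell (2 and 1). In the same order of libraries left out, the cell cycle genes that rose numbered 13, 7, 5 and 6, and the glycolysis genes 4, 0, 0 and 0. Cyclin D2 (Ccnd2) had 135 and 149.5 CPM in NPC, against 32.3 and 28.4 CPM in ESC (2.23 ± 0.10), whereas cyclin D3 (Ccnd3), Mdm2 and the inhibitor Cdkn1a fell (-1.60 ± 0.12, -0.84 ± 0.08 and -0.69 ± 0.08).

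MicroRNA windows fell at an ESC cluster and rose at several brain miRNAs. The miR-290 to miR-295 cluster on chromosome 7 is the main miRNA product of mouse ESC. Mature sequences from RefSeq (mm10) are shown with the seed, bases 2 to 8, in capitals, because some members of the cluster share it. MiR-291a, miR-294 and miR-295 have the seed AAGUGCU, miR-291b has AAGUGCA, miR-292b has AGAGCCC, and the brain miRNAs miR-9 and miR-219a have others.
mmu-miR-291a-3p: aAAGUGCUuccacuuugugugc
mmu-miR-294-3p: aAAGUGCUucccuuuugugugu
mmu-miR-295-3p: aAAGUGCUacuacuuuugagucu
mmu-miR-291b-3p: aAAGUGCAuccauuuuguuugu
mmu-miR-292b-3p: aAGAGCCCccaguuugaguau
mmu-miR-9-5p: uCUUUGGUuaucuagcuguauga
mmu-miR-219a-5p: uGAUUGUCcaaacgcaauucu

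The window of Mir291a had 11.4 and 15.9 CPM in NPC, against 229 and 247 CPM in ESC (-4.03 ± 0.11, adjusted p = 5.57e-295), and that of Mir291b 11.7 and 16.4 CPM in NPC, against 237 and 255 CPM in ESC (-4.03 ± 0.11). Windows of the cluster overlap and count largely the same reads, so they are 1 observation. Mir9-2, a source of the neural miR-9, had 124 and 126 CPM in NPC, against 11.0 and 11.4 CPM in ESC (3.49 ± 0.12), and Mir219a-2, whose miRNA acts in oligodendrocytes and progenitors, had 119.8 and 128 CPM in NPC, against 25.9 and 21.4 CPM in ESC (2.37 ± 0.10). The host gene Mir124-2hg of the neuronal miR-124 had 98.0 and 108 CPM in NPC, against 8.15 and 4.73 CPM in ESC (3.92 ± 0.13). Mir9-1, a further source of miR-9, did not pass at 9.56 and 10.5 CPM in NPC, against 12.8 and 10.8 CPM in ESC. Of 37 tested windows of the list 11 rose and 20 fell, and among those without an overlap 8 and 2.

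Among windows at or above the median level and with no overlap, and leaving out predicted genes, small RNAs and their hosts, the 10 largest losses were at Nanog, Zfp936, Platr10, Fbxo15, Lncenc1, Dppa2, Calcoco2, Tdh, Pou5f1 and Rnf125, with log2 changes of -4.46 to -4.26. Platr10 and Lncenc1 are long noncoding RNAs of the pluripotent state. Lncenc1 had 11.7 and 11.4 CPM in NPC, against 222 and 246 CPM in ESC, and Calcoco2, an autophagy receptor gene, had 7.47 and 7.89 CPM in NPC, against 155 and 153 CPM in ESC. The 10 largest gains were at Elavl4, Ddr1, Ildr2, Zfp608, Maml2, Lin28a, Meis1, Pcdh18, Dbn1 and Id1, with changes of 4.86 to 2.75. Ddr1, a collagen receptor kinase, had 151 and 165 CPM in NPC, against 9.27 and 8.34 CPM in ESC, Dbn1, the actin-binding protein drebrin, had 71.7 and 81.1 CPM in NPC, against 12.0 and 10.0 CPM in ESC, and Id1, an inhibitor of bHLH factors, had 97.1 and 108 CPM in NPC, against 15.7 and 15.0 CPM in ESC. Each of these losses left NPC below 16 CPM, and each of these gains started from below 50 CPM in ESC.

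H3K27me3 was measured at the same windows in separate libraries, and 22.9% of its 21863 tested windows rose and 23.5% fell. Of the 840 windows where H3K4me3 rose by 2-fold or more and H3K27me3 was tested, H3K27me3 fell at 375 (44.6%) and rose at 21 (2.50%), with a median log2 change of -0.76. Of the 2393 windows where H3K4me3 fell by 2-fold or more, H3K27me3 rose at 685 (28.6%) and fell at 566 (23.7%), with a median of 0.33. Over all windows where H3K4me3 fell, without regard to size, it rose at 2238 (41.7%) of 5370 and fell at 643. Over all 5018 windows where H3K4me3 rose, it fell at 934 (18.6%) and rose at 799 (15.9%), with a median of 0.06. The difference between the marks in their change was tested as an interaction in 1 model. It passed at 8327 windows of 23958 (34.8%), and at 87.1% of the windows where H3K4me3 rose by 2-fold or more and 63.8% of those where it fell by as much. The last 2 shares are of windows chosen by the H3K4me3 change, which is itself part of the interaction. Higher shares there are built in and say nothing further about H3K27me3. The H3K27me3 libraries were shallower. The share of H3K27me3 calls that rose was 49.4% with TMM, against 26.2% with library totals and 32.5% with factors from windows without a call. The NPC H3K27me3 replicates also stood further apart than those of H3K4me3 (Pearson's r of 0.911 over windows). Of 10143 H3K27me3 calls in all, 3573 were made without ESC replicate 1, and the difference between the marks passed at 4944 windows without that library.

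Genes that lost H3K4me3 differed in H3K27me3. At Fgf4 H3K27me3 had 300.2 and 792 CPM in NPC, against 13.1 and 9.70 CPM in ESC, a log2 change of 5.55 ± 1.14 (adjusted p = 1.79e-05), opposite to the H3K4me3 loss. Nodal and Cdh1 gained it as well (4.72 ± 0.72 and 4.82 ± 0.85), as did Klf4 (4.94 ± 0.71) and Pou5f1 (4.16 ± 0.46). At Fbxo15 the H3K4me3 loss was as large as at Pou5f1, but H3K27me3 had 29.4 and 11.1 CPM in NPC, against 11.1 and 20.8 CPM in ESC and did not pass. Spp1 and Lncenc1 did not pass and Hesx1 rose by less than 2-fold, with H3K27me3 levels of 15.4, 20.1 and 26.8 CPM in NPC, against 9.08, 12.9 and 13.7 CPM in ESC. H3K27me3 rose at 17 of the 19 naive pluripotency factors that lost H3K4me3, at 13 of 21 such epithelial genes and at 0 of 13 such germline genes, against 41.7% of all windows where H3K4me3 fell. Where H3K4me3 fell by 2-fold or more the share was 28.6%, and 16, 14 and 13 genes of these lists fell by as much.

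Genes that gained H3K4me3 differed in H3K27me3 as well. Maml2 had 22.7 and 40.0 CPM in NPC, against 153 and 151 CPM in ESC of H3K27me3 (-2.26 ± 0.52), and Smo and Snap25 lost it as well (-1.64 ± 0.38 and -1.88 ± 0.33). At Nkx2-2, Foxa2 and Hoxb3, where H3K4me3 rose by more than 3-fold, the H3K27me3 change did not pass, and the NPC libraries lay on both sides of the ESC libraries, with replicate 2 the higher. Nkx2-2 had 99.4 and 292 CPM in NPC, against 178 and 145 CPM in ESC, Foxa2 had 219.7 and 595 CPM in NPC, against 242 and 230.0 CPM in ESC, and Hoxb3 had 309 and 867 CPM in NPC, against 448 and 377 CPM in ESC. Among the 11 ventral neural tube factors that gained H3K4me3, 0 lost H3K27me3, and among the 22 neural progenitor factors 5 did, against 18.6% of all windows where H3K4me3 rose. The share was 44.6% where H3K4me3 rose by 2-fold or more, as it did at 7 and 18 of these factors. Bulk libraries cannot tell apart both marks on the same nucleosomes from different cells of a culture, nor fewer cells with a mark from less mark per cell.

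**Figure D5:**
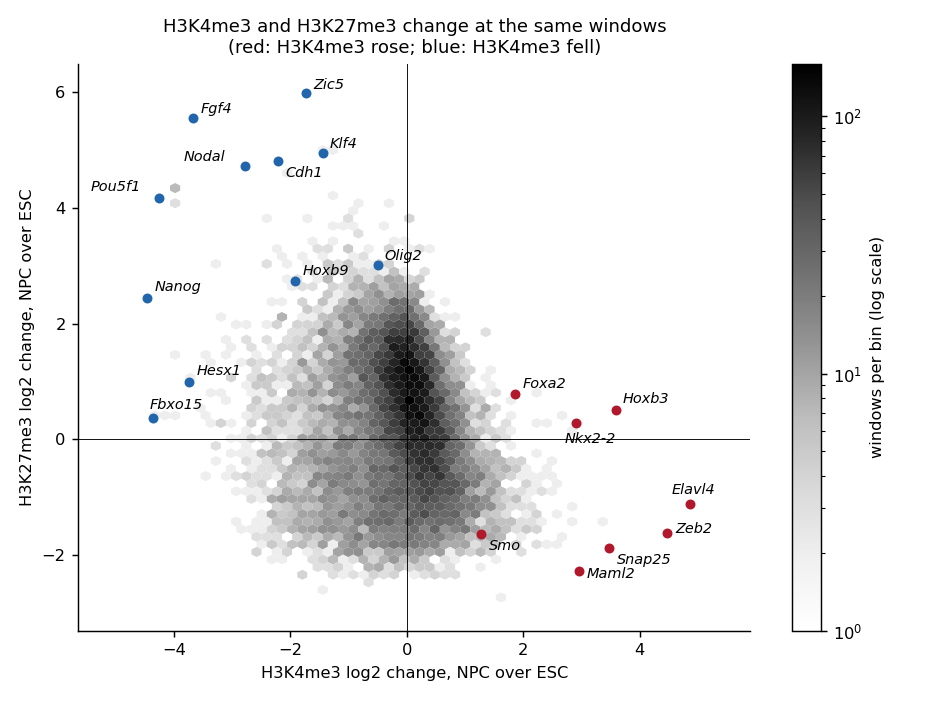
Log2 change, NPC over ESC, of H3K4me3 (x axis) and H3K27me3 (y axis), as counts of windows in grey bins on a log scale, with named genes as red points where H3K4me3 rose and blue points where it fell. Fgf4, Nodal, Klf4, Cdh1 and Pou5f1 lie at upper left, Maml2, Snap25, Zeb2 and Elavl4 at lower right, and Nkx2-2, Foxa2 and Hoxb3 to the right near 0 on the y axis.

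Calls over IgG gave the windows that were called as carrying the mark. H3K4me3 was called at 9278 windows in NPC (37.9%) and at 8573 in ESC (35%) (log2 over IgG 1 or more), and at 7431 in both. Of the 1847 windows called in NPC alone 1417 rose, and of the 1142 called in ESC alone 842 fell. The calls and the change use the same H3K4me3 libraries, so these directions follow in part from how the windows were chosen. The other 14047 windows were called in neither cell type and held 3013 of the 5778 falls and 1328 of the 5286 rises (9356 tested, median log2 change -0.27), at median levels of 3.05 CPM in NPC and 3.84 CPM in ESC. H3K27me3 was called at 3602 windows in NPC (14.7%) and 5358 in ESC (21.9%). The 545 windows with both marks in ESC, the state called bivalent, leaned to gains, as 300 (55.0%) rose and 110 (20.2%) fell. Among the 8028 windows with H3K4me3 alone the shares were 27.9% and 32.6%, and among 4296 tested windows with H3K27me3 alone 28.6% and 25.7%. With a threshold of 2 on that scale the bivalent windows were 92, of which 57 rose and 17 fell.

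Size and direction went with the CpG content of the promoter. The 15048 windows with a RefSeq promoter at the same start were split by the ratio of observed to expected CpG in 300 bases. Below 0.2, 4.52% of 1482 tested windows rose and 27.2% fell, and from 0.2 to 0.4, 10.8% of 1844 rose and 36.7% fell. At 0.8 and above 35.6% of 4122 rose and 24.8% fell. Losses of 4-fold or more were 9.92% of tested windows from 0.2 to 0.4 and 0.412% at 0.8 and above. The median ratio was 0.29 at the 443 matched windows that fell by 4-fold or more, 0.49 at the 77 that rose by as much, and 0.79 and 0.77 at those that rose or fell by less than 2-fold. The mean level differs between these classes, with medians of 4.33 CPM in NPC and 8.92 CPM in ESC from 0.2 to 0.4, against 75.5 and 70.5 CPM at 0.8 and above, and their part in the result was not tested.

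Short motifs were searched on both strands of the same 300 bases. The GC box GGGCGG was in 26.4% of the promoters that fell by 4-fold or more and 42.9% of those that rose by as much. It was in 66.2% of those that fell by less than 2-fold, 71.6% of those that rose by less than 2-fold and 45.2% of all 15048. The octamer ATGCAAAT, which POU factors bind, was in 3.61% of the 443 that fell by 4-fold or more and 1.73% of all. Among the small group of 77 that rose by 4-fold or more the share was 3.90%. At changes of 2- to 4-fold it was lower than over all promoters, with 1.03% of those that fell and 1.43% of those that rose. Zfp42 above is among the promoters that hold the octamer. The CpG-rich Fgf4 promoter holds the GC box and CCAAT, and the CpG-poor Nanog and Elavl4 promoters hold no GC box. The GC box contains a CpG, so that its share moves with CpG content.

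By gene type, protein-coding windows were even, with 4856 that rose and 4853 that fell of 16884. Long noncoding RNA windows leaned to losses, with 281 and 444 of 1597, and miRNA windows with 89 and 275 of 842. Of these tested windows 642 and 402 overlap another window and share its reads. Of 107 small nucleolar RNA windows 3 rose and 84 fell, but 84 of the 107 overlap another window, so that the reads can be those of a host gene. Of 1098 olfactory receptor windows, a family that olfactory neurons use, 128 had enough counts, of which 1 rose and 20 fell. Without NPC replicate 2, 72 rose and 15 fell of 215, without NPC replicate 1, 0 and 44 of 257, and without ESC replicate 1 or 2, 0 and 5 of 219 and 0 and 10 of 572. Chromosome medians of the log2 change lay between -0.07 and 0.09, apart from the Y chromosome with 5 windows. The IgG libraries had a mean of 42.8 CPM in NPC and 45.0 CPM in ESC at the windows that fell by 4-fold or more in H3K4me3, and 38.6 CPM in NPC and 36.1 CPM in ESC at those that rose by as much.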

How the data were processed

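CUT&RUN counts for 22 libraries were analysed, of which 4 (H3K4me3 in 2 NPC and 2 ESC libraries) are the subject and the H3K27me3, SUZ12, MTF2, JARID2 and IgG libraries serve as comparison. The deposited values are raw counts of reads in a window of 5000 bp centred on 1 RefSeq TSS per gene, per the file headers and the values, which are whole numbers. The build mm10, Bowtie2 2.3.4.3 and Picard 2.19 are named in the submitters' processing notes, which give no role or order, and the counting tool is not given in the sources used here.

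Counts were tested with edgeR 4.0.16 (R 4.3.3) by the quasi-likelihood test, with TMM factors, filterByExpr at a minimum count of 10 and Benjamini-Hochberg adjustment over all tested windows, at a threshold of 0.05. SE is the absolute log2 change over the square root of F. Calls over IgG came from 1 fit of all 22 libraries at an adjusted p of 0.05 and a log2 fold of 1 or more. The change in H3K4me3 minus that in H3K27me3 was tested as an interaction. The steps were tested on simulated data. Alternatives were DESeq2 1.42.0, library totals, factors from windows without a call, other filters, a replicate block, windows without overlap and each library left out.

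The genes and lists were chosen with earlier results of these data known. Per list the text may name up to 4 passing genes in each direction with the smallest p, all of them where 5 or fewer passed, up to 2 highest genes that did not pass, fixed landmark genes, and the 10 largest changes in each direction. The labels' replicate numbers are not said to mark a shared culture or day, so they were not used as pairs. Counts of 3 set the floor, for counting error only. Some genes that the rule would allow are not reported here.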

Additional observations from a re-analysis of the deposited data

Results flagged for a closer look

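Polycomb proteins were measured in further libraries of the same cells, which the H3K4me3 comparison did not use. SUZ12, a core subunit of PRC2, was called above IgG at 1352 windows in ESC, and MTF2, an accessory subunit, at 2169. In NPC edgeR called 0 windows for SUZ12 (495 at an unadjusted p of 0.05) and 0 for MTF2 (650). For JARID2 it called 0 in NPC (140) and 0 in ESC (560). Of the 1351 SUZ12 windows that were tested for H3K4me3, 720 (53.3%) rose in NPC and 309 (22.9%) fell. Of the 2168 tested MTF2 windows 1063 (49.0%) rose and 496 (22.9%) fell. The shares over all tested windows were 26.7% and 29.2%.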

How the results depend on the processing

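Against 11064 windows with an H3K4me3 change, 3861 passed with TMM factors from windows not above IgG, 7611 with DESeq2 (41 of 290 named calls lost), and 7811 to 12296 when 1 library was left out. Against 10143 windows for H3K27me3, DESeq2 gave 3589, library totals 6390 and a minimum count of 30 gave 4530, with 3573 to 10378 when 1 library was left out. For the difference between the marks (8327) factors from windows not above IgG gave 5273, and 4944 to 9381 passed without 1 library. H3K4me3 calls over IgG in NPC (9278) were 3623 at a log2 fold of 2, 4088 with library totals and 5557 at a minimum count of 30, and in ESC (8573) they were 3939, 4387 and 5416. H3K27me3 calls over IgG in NPC (3602) were 2140 at a log2 fold of 2, 2131 with library totals and 376 in a fit of 6 libraries only, and in ESC (5358) they were 2294, 2903 and 2662. The cause of these shifts was not tested. With the replicate number as a block 10724, 7989 and 7559 windows passed for H3K4me3, H3K27me3 and their difference. Same-numbered libraries deviated against each other (r = -0.101 for H3K4me3 and -0.216 for H3K27me3), and the crossed pairing, added after seeing the data, gave 10658 and 10982. List medians changed sign, from -0.48 for miRNAs, -0.26 for olfactory receptors, -0.21 for retinoic acid, -0.12 for WNT, -0.05 for cell cycle, 0.08 for demethylases and 0.05 for BAF. With factors from windows not above IgG these were WNT (0.017) and cell cycle (0.080), with no filter retinoic acid (0.073), H3K4 demethylases (-0.0012), BAF (-0.028) and olfactory receptors (0.47), and among windows without overlap cell cycle (0.17) and miRNAs (1.69). Without 1 library the medians ranged from -0.25 to 0.11 for retinoic acid, -0.0019 to 0.17 for demethylases, -0.055 to 0.16 for BAF, -0.068 to 0.039 for cell cycle and -0.52 to 1.33 for olfactory receptors, and the change at Slc2a1 from -0.029 to 0.38. NPC replicate 2 lies lower than the other H3K4me3 libraries at windows without a call over IgG, and its part in these shifts was not tested. In DESeq2 the synapse genes that fell were 1, against 6, and the FGF genes 2, against 6.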
